A study of Homo sapiens with 10 samples.

Results

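The 4 HOX gene clusters were examined in the T-cell acute lymphoblastic leukaemia (T-ALL) line RPMI-8402, a long-established human culture, for the histone marks and MYC family binding that lay on them. The members were all listed regions that shared at least 1 bp with 1 of 4 windows on hg19. The windows were HOXA on chromosome 7 from 27.12 to 27.26 Mb, HOXB on chromosome 17 from 46.60 to 46.81 Mb, HOXC on chromosome 12 from 54.32 to 54.46 Mb and HOXD on chromosome 2 from 176.94 to 177.06 Mb. They held 59 of the 121294 regions on chromosomes 1 to 22 and X. Every library came from this same line, grown in RPMI medium with serum and with no drug or genetic change named in the labels, so libraries differ in antibody and set and their lists also in peak caller. The method was CUT&RUN, in which an antibody recruits a nuclease that releases the DNA beside its target. Of the 10 libraries in sets A to D, 4 were control IgG, and their lists were not used here. The 6 lists used were MYCN (set A), H3K4me3 (set B), MYC, H3K27ac and H3K4me1 (set C) and MYC again (set D). Each list is 1 library with positions only, so depth and signal height are unknown, no spread between cultures can be given, and no test was made. The labelled cell type was not checked against marker genes, because no hg19 gene annotation was used here.

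HOX genes encode homeodomain transcription factors that set positional identity along the body axis, and vertebrates carry them in 4 paralogous clusters, HOXA to HOXD. The genes of a cluster lie in the order in which they are used along the axis, and Polycomb complexes keep the clusters silent where they are not used. Members of HOXA, HOXA9 among them, act in blood stem cells and are switched on in a subset of T-ALL. H3K4me3 marks promoters, H3K27ac marks active promoters and enhancers, and H3K4me1 is found mostly at enhancers and promoter flanks. Silenced developmental promoters can also carry H3K4me3 together with the Polycomb mark H3K27me3, which was not profiled here.

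RefSeq (GRCh38.p14) places 39 HOX genes in the clusters, 11 in HOXA, 10 in HOXB and 9 in each of HOXC and HOXD. In order of increasing coordinate HOXA ends with HOXA13, and HOXB runs from HOXB1 to HOXB13. HOXC and HOXD run the other way, from HOXC13 and HOXD13 at the low end towards the genes of low number. This order is used below for orientation only, since the regions are on hg19 and were not assigned to genes.

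MYC binds DNA as a partner of MAX and favours the E-box CACGTG, a palindrome that reads the same on both strands. RefSeq promoters, 250 bases before to 50 after a gene start, were at hand for 20 HOX genes, and 9 of these genes held CACGTG in at least 1 promoter. They were 4 of 9 HOXA genes and 5 of 8 HOXD genes, while the 2 HOXC genes and the 1 HOXB gene with an entry had no match. Counted by promoter entry, the motif was in 9 of 27 HOX promoters (33.3%) and in 2548 of all 35116 (7.26%). The 27 entries belong to the 20 genes, so some genes count more than once. The promoters were not matched for base content, and the difference was not tested. The stretches with the motif are shown because they are the letters in HOX promoters that MYC family proteins could recognise. They are written 5′ to 3′ on the strand of the gene, on GRCh38.p14, with the E-box in capitals, and none is carried past the gene start beyond the motif, which shortens that of HOXA7. A match is a description of the letters and was not set against the hg19 regions.
HOXA3, chr7:27118376-27118435, minus strand: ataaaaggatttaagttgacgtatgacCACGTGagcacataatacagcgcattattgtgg
HOXA4, chr7:27130925-27130984, minus strand: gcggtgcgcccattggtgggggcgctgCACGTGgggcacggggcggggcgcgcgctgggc
HOXA7, chr7:27156675-27156707, minus strand: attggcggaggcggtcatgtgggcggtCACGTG
HOXA9, chr7:27165576-27165635, minus strand: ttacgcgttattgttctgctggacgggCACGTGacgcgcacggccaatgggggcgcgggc
HOXD1, chr2:176188588-176188647, plus strand: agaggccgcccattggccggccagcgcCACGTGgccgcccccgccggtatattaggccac
HOXD3, chr2:176157233-176157292, plus strand: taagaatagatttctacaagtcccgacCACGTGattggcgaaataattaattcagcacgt
HOXD10, chr2:176116645-176116704, plus strand: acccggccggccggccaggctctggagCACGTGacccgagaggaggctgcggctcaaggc
HOXD11, chr2:176107163-176107222, plus strand: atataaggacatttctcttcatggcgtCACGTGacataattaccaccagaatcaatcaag
HOXD13, chr2:176092563-176092622, plus strand: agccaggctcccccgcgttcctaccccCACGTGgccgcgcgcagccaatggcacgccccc

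None of the 4 clusters was bare of every list. H3K27ac, H3K4me1 and MYC of set D each lay in all 4 windows. H3K4me3 lay in HOXA, HOXB and HOXD and was missing from HOXC. MYC of set C lay in HOXB, HOXC and HOXD and was missing from HOXA, and MYCN lay in HOXD only. Among peaks at or above the median width of the set D list, MYC of set D lay in 2 of the 4 windows, HOXB and HOXD. HOXB held 24 regions, HOXA 16, HOXD 14 and HOXC 5. By list there were 18 regions of H3K4me1, 14 of H3K4me3, 13 of H3K27ac, 8 of MYC set D, 5 of MYC set C and 1 of MYCN.

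For background, chromosomes 1 to 22 and X were cut end to end into stretches as long as each window. A stretch of 140 kb held H3K4me3 in 31.6% of cases, H3K27ac in 55.4% and MYC of either list in 42.0%. H3K4me3 was in 39.2% of stretches of 210 kb, the length of the HOXB window, and in 28.9% of those of 120 kb, the length of HOXD. MYCN was in 3.28% of the 120 kb stretches. H3K4me1 was in 47.5% of the 140 kb stretches, MYC of set D in 41% and MYC of set C in 25.5%. Many such stretches hold no gene, so these shares are a wide background. Of the 140 kb stretches with H3K4me3, 94.1% held H3K27ac and 93.5% MYC of either list. Of those without H3K4me3, 37.5% held H3K27ac and 18.2% MYC of either list.

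**Figure D1:**
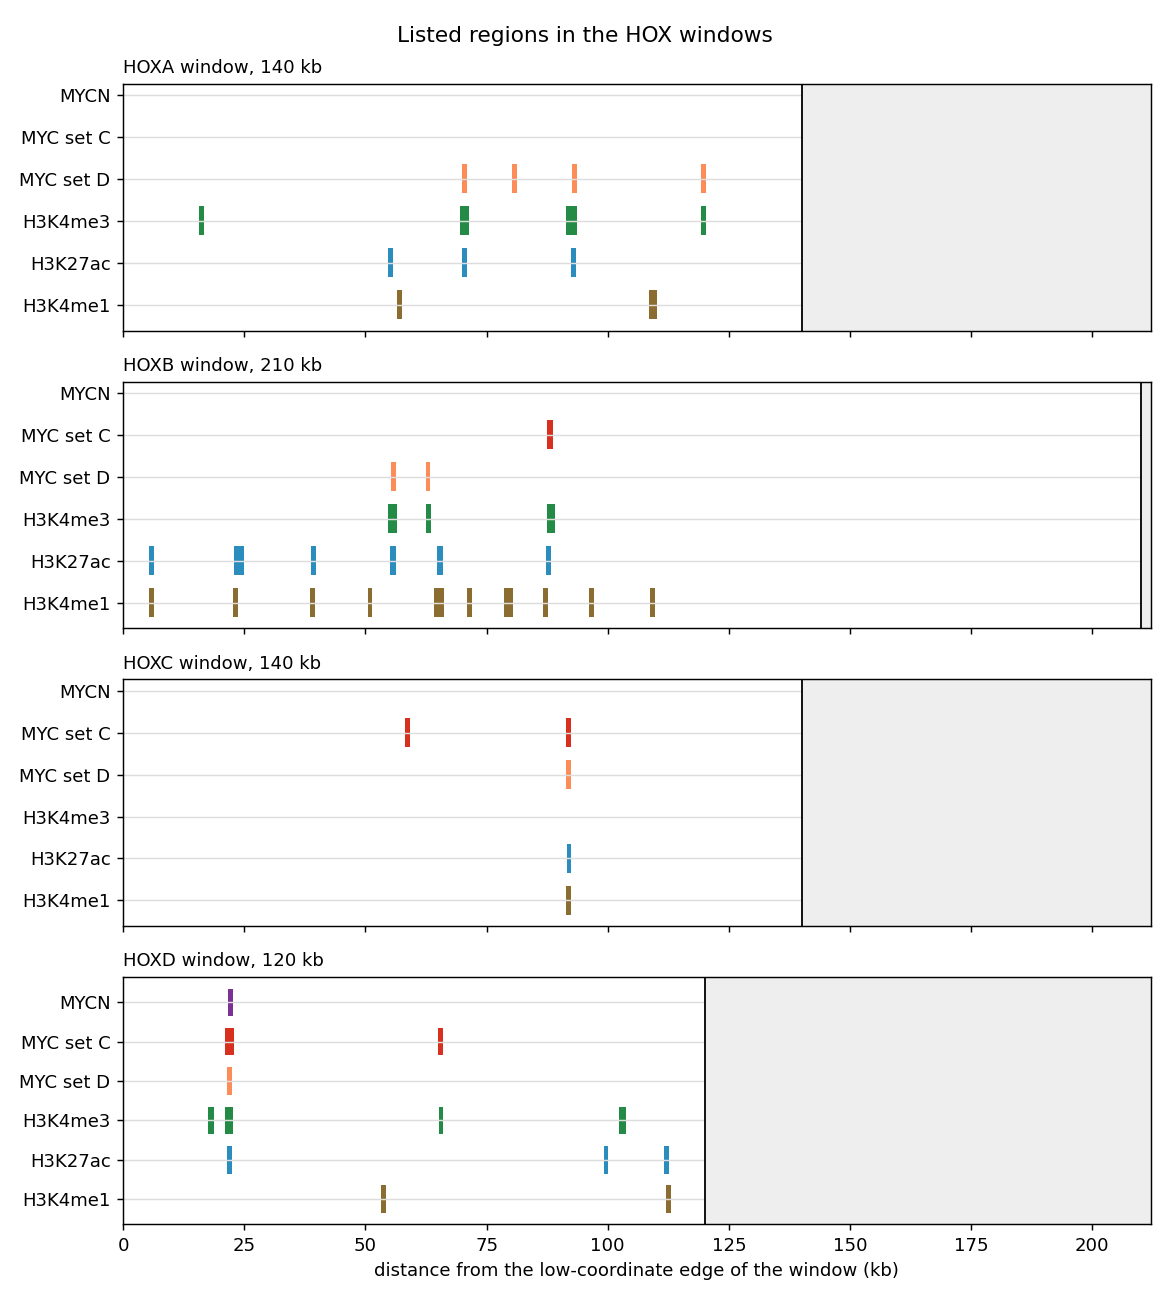
Positions of the 59 regions in the 4 windows, with distance from the low-coordinate edge (kb) on the x axis and 1 row per list; a vertical line marks the end of each window, the grey area lies outside it, and regions under 1 kb are drawn 1 kb wide to be seen. HOXC has no H3K4me3, HOXA has no MYC of set C, and the high-coordinate side of HOXB is empty in every list.

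HOXD held the place with the most lists. At chr2:176960993-176962858, in the low-coordinate part of the window, H3K4me3, H3K27ac, MYCN and both MYC lists overlapped in a joint stretch of 1866 bp, and H3K4me1 was 30.9 kb from the H3K4me3 region. The H3K4me3 region there was 1674 bp wide, the H3K27ac region 999 bp, the MYC region of set C 1829 bp, the MYC region of set D 1104 bp and the MYCN region 312 bp. The MYC region of set D was wider than 97.1% of its list and that of set C wider than 88.9%. Such overlaps were usual for MYCN. Of its whole list, 98.2% overlapped MYC of set D, 71.2% MYC of set C, 82.2% H3K4me3 and 80.6% H3K27ac. The MYCN region, at chr2:176961958-176962269, was wider than 72.6% of its list. It was also the only MYCN region in the 4 windows, so 1 of 14 H3K4me3 regions there held MYCN (7.14%, exact 95% interval 0.181 to 33.9%), beside 5.10% of all H3K4me3 regions. Intervals here cover counting error over listed regions only.

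The other H3K4me3 regions of HOXD carried less. The region at chr2:176957512-176958759 was 1248 bp wide, lay 2.27 kb from MYC of set C and 2.77 kb from H3K27ac, and overlapped neither. A region of 383 bp at chr2:177005390-177005772 lay in a MYC region of set C (chr2:177005121-177005951, 831 bp), with the nearest H3K27ac 33.6 kb away and the nearest MYC of set D 42.9 kb away. Towards the high-coordinate end, where the genes of low number lie, chr2:177042629-177042981 and chr2:177043140-177043492 were each 353 bp wide and overlapped no other list. H3K27ac at chr2:177039374-177039890 (517 bp) stood alone 2.74 kb from the first of these. The widest H3K4me1 region of the window, chr2:177052329-177052667 (339 bp), overlapped H3K27ac at chr2:177051808-177052534 (727 bp) without H3K4me3. The 5 H3K4me3 regions in 120 kb were matched or exceeded in 1.76% of stretches of that length. Neighbouring regions, such as the pair of 353 bp, were counted one by one, in HOXD and in the stretches alike.

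HOXA held 6 H3K4me3 regions, and those with acetylation lay in the middle and towards HOXA13. At chr7:27189550-27191297 a region of 1748 bp overlapped H3K27ac (1032 bp, the widest of the window) and a MYC peak of set D at chr7:27190359-27190626 (268 bp). At chr7:27212604-27213617 a region of 1014 bp overlapped H3K27ac (735 bp) and a MYC peak of set D at chr7:27213027-27213310 (284 bp). Beside the latter stood 2 narrow H3K4me3 regions, chr7:27211809-27212036 (228 bp) and chr7:27212181-27212449 (269 bp), which lay 0.548 and 0.135 kb from the H3K27ac region and overlapped no other list. H3K4me3 was thus broken into 3 pieces there.

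The H3K4me3 region nearest the high-coordinate end of HOXA had no acetylation. There chr7:27239383-27240046 (664 bp) overlapped MYC of set D at chr7:27239645-27239957 (313 bp) and lay 26.1 kb from H3K27ac. The fourth MYC peak of set D, chr7:27200702-27200972 (271 bp), overlapped no mark and lay 9.40 kb from H3K4me3. All 4 HOXA peaks of set D were narrower than the list median of 422 bp. The nearest MYC region of set C was between 462 and 512 kb from them. At least 6 H3K4me3 regions were found in 1.41% of 140 kb stretches and at least 4 MYC peaks of set D in 5.81%. Neighbouring pieces of H3K4me3 were counted one by one, in HOXA and in the stretches alike. The 3 H3K4me1 regions of HOXA did not overlap any other list, and the widest was chr7:27228895-27229225 (331 bp). After overlapping regions of any list were joined, H3K4me1 alone was at 3 of 11 sites in HOXA (27.3%), close to the 27.7% of all sites.

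HOXB differed in make-up, with 12 H3K4me1 regions, 6 H3K27ac regions and 3 H3K4me3 regions. At least 12 H3K4me1 regions were found in 5.95% of 210 kb stretches and at least 3 H3K4me3 regions in 13.5%. The widest H3K4me3 region of all 4 windows, chr17:46654560-46656533 (1974 bp), overlapped H3K27ac (1111 bp) and MYC of set D at chr17:46655570-46656049 (480 bp). The region chr17:46687434-46689030 (1597 bp) overlapped H3K27ac (872 bp) and MYC of set C at chr17:46687475-46688676 (1202 bp). Between them, chr17:46662879-46663094 (216 bp) lay inside a MYC peak of set D at chr17:46662717-46663114 (398 bp) and 1.72 kb from H3K27ac. MYC of set C and of set D were therefore both present in HOXB and never at the same place, with 24.4 kb between the nearest pair.

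The remaining acetylation of HOXB lay with H3K4me1 and away from H3K4me3. Regions of both marks overlapped at 4 places without H3K4me3, and all of these were free of MYC. They were 4 of the 14 sites of HOXB when overlapping regions of any list were joined (28.6%), close to the 25.4% of all sites. For background, MYC of either list overlapped 34.6% of all H3K27ac regions and 15.9% of all H3K4me1 regions, those at H3K4me3 included. The MYC share over all places with both marks and no H3K4me3 was not computed. The widest H3K27ac region of the 4 windows, chr17:46622963-46624870 (1908 bp, wider than 98.2% of its list), was among those 4 places. So was the widest H3K4me1 region, chr17:46665264-46666260 (997 bp, wider than 96.2% of its list). All 4 lay on the low-coordinate side, the side of HOXB1. Another 7 H3K4me1 regions stood alone. With overlapping regions of any list joined, these were 7 of 14 sites in HOXB (50%), beside 27.7% of all sites.

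HOXC was the barest cluster, with regions at 2 places only. At chr12:54411479-54412349 both MYC lists, H3K27ac and H3K4me1 overlapped, with MYC of set C 852 bp wide, MYC of set D 352 bp, H3K27ac 580 bp and H3K4me1 743 bp. There was no H3K4me3, and the nearest H3K4me3 region was 170 kb away. The H3K4me1 region was wider than 90.4% of its list and the MYC region of set C wider than 17.1%. The other place was a MYC region of set C at chr12:54378123-54379229 (1107 bp) with no mark, 32.4 kb from H3K4me1 and 32.5 kb from H3K27ac. Listed regions covered 1.41% of the HOXC window, beside 4.37% of HOXA, 5.21% of HOXD and 5.42% of HOXB. Of 140 kb stretches, 10.8% held H3K27ac and MYC but no H3K4me3, as HOXC did.

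**Figure D2:**
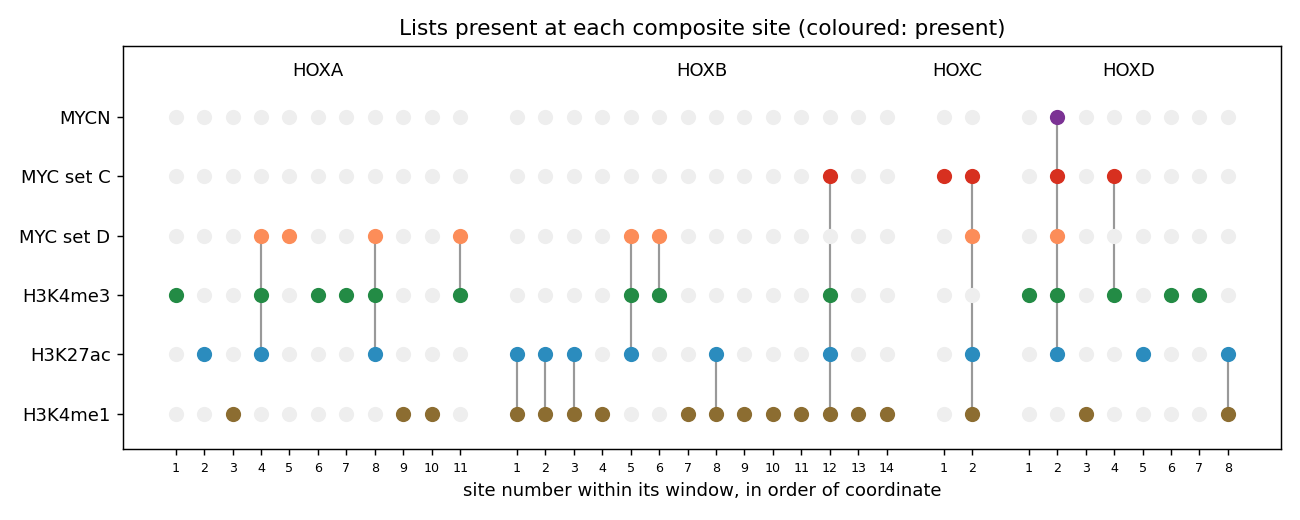
Lists present at each of the 35 composite sites, in which regions of any list that share at least 1 bp are joined; the x axis numbers the sites by coordinate within a window, the rows are the lists, coloured dots mark presence and lines join the lists of a site. HOXD site 2 holds 5 lists, HOXB site 12 and HOXC site 2 hold 4, and 21 of the 35 sites hold 1.

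Joining overlapping regions of any list gave 35 composite sites, 14 in HOXB, 11 in HOXA, 8 in HOXD and 2 in HOXC. A lone list made up 21 of the 35 (60.0%), close to the 52.6% of all 64184 sites. H3K4me3 was at 14 sites (40.0%, beside 20.4% of all sites) and H3K4me3 alone at 6 (17.1%, beside 3.12%), with 3 of these 6 in HOXA and 3 in HOXD. Some of the 6 were pieces close to another H3K4me3 region. Joining regions of each list under 1 kb apart left 11 H3K4me3 regions in place of 14, and lone sites were not recounted after it. H3K4me1 alone was at 11 sites (31.4%, beside 27.7%) and H3K27ac alone at 2 (5.71%, beside 18.6%). H3K27ac with H3K4me1 and without H3K4me3 was at 6 (17.1%, beside 25.4%). MYC of either list was at 11 sites (31.4%, beside 29.5%), and both lists were at 2 (5.71%, beside 12.2%). MYC without any mark was at 2 sites, 1 in HOXA and 1 in HOXC (5.71%, beside 3.51%). There were 3 sites with 4 or more lists (8.57%, beside 10.8%) and 1 with 5 (2.86%, beside 2.49%).

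Most H3K4me3 regions of the clusters carried no acetylation. H3K27ac overlapped 5 of the 14 regions (35.7%, interval 12.8 to 64.9%), beside 66.2% of all H3K4me3 regions. MYC of either list overlapped 8 of 14 (57.1%, 28.9 to 82.3%), beside 76.7%, and H3K4me1 overlapped 0 of 14 (upper bound 23.2%), beside 14.4%. Some of the 14 were neighbouring pieces. After regions of each list under 1 kb apart were joined, H3K27ac overlapped 5 of 11 (45.5%) and MYC of either list 8 of 11 (72.7%). The whole-list shares were not recomputed with joined regions. With MYC of set C alone 3 of 14 regions held MYC (21.4%), beside 47.9% of all H3K4me3 regions. With set D alone it was 6 of 14 (42.9%), beside 72.3%. All 5 acetylated regions also held MYC. Over chromosomes 1 to 22 and X, 7988 of the 8916 composite sites with H3K4me3 and H3K27ac held MYC too.

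The H3K4me3 regions of the clusters were mostly narrower than the list median, and the acetylated ones were mostly the wide ones. Their widths ran from 216 to 1974 bp with a median of 805.5 bp, beside a list median of 1341 bp. The 4 regions at or above the list median were 2 in HOXB, 1 in HOXA and 1 in HOXD, and all 4 overlapped H3K27ac and MYC. Over the whole list 83.3% of such wide regions overlapped H3K27ac and 92.3% MYC. Of the 10 narrower regions 1 overlapped H3K27ac (10.0%, 0.253 to 44.5%) and 4 overlapped MYC (40.0%, 12.2 to 73.8%), beside 49.2% and 61.2% of all narrower regions. The part of region width in these overlaps was not tested. By bases, H3K27ac covered 36.5% of the H3K4me3 sequence of the clusters, beside 32% over the whole list, the opposite order to the shares of regions.

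**Figure D3:**
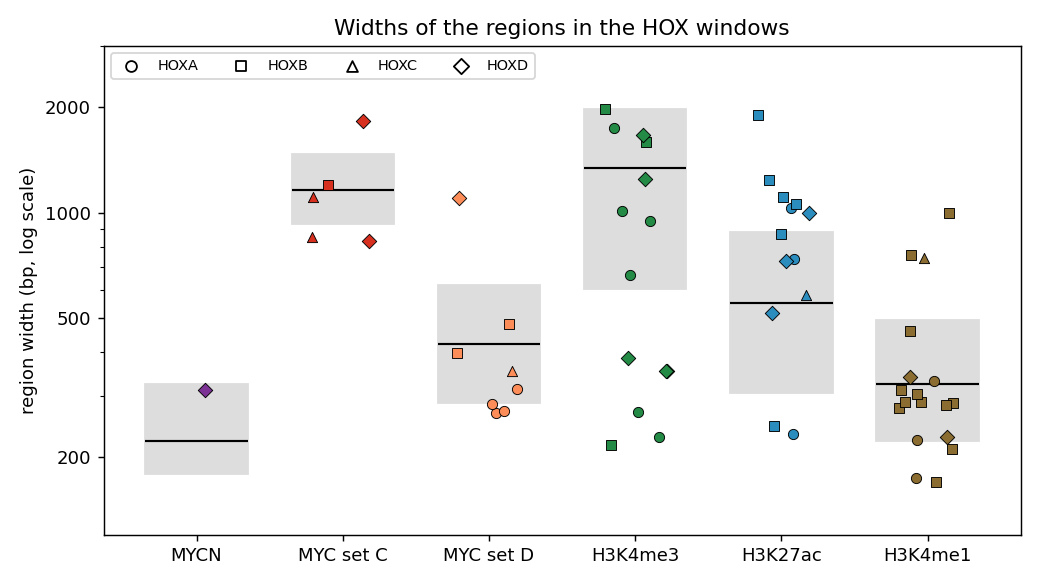
Width of each region in the windows (bp, log scale) by list; point shapes give the cluster, grey boxes span the middle 50% of widths of the whole list and the black line is its median. For H3K4me3 10 of 14 regions lie below the list median of 1341 bp, and for H3K27ac 10 of 13 lie at or above the list median of 551 bp.

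H3K27ac regions, by contrast, were mostly wide for their list. Of 13, 10 were at or above the list median of 551 bp, and their widths ran from 233 to 1908 bp. H3K4me3 overlapped 5 of 13 (38.5%, 13.9 to 68.4%), beside 23.2% of all H3K27ac regions, H3K4me1 overlapped 7 (53.8%, 25.1 to 80.8%), beside 45.3%, and MYC of either list 6 (46.2%, 19.2 to 74.9%), beside 34.6%. The whole-list shares lay inside these intervals. The 18 H3K4me1 regions had a median width of 287.5 bp, beside 324 bp for the list. H3K27ac overlapped 7 of them (38.9%, 17.3 to 64.3%, beside 50.4%), MYC 1 (5.56%, 0.141 to 27.3%, beside 15.9%) and H3K4me3 0 (upper bound 18.5%, beside 5.18%). The H3K4me1 region at chr17:46687048-46687323 touched the neighbouring H3K27ac region by 1 bp.

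The MYC lists named mostly different places in the clusters. Of the 5 regions of set C, 2 overlapped set D (40.0%, 5.27 to 85.3%), beside 82.5% of the whole set C list, and of the 8 peaks of set D, 2 overlapped set C (25%, 3.19 to 65.1%), beside 45.1%. Both whole-list shares lay inside these intervals. The shared places were the HOXD site with MYCN and the HOXC site with H3K27ac and H3K4me1. Peaks of the lists were called with different programs, the headers of both point to the same signal track, and the labels give the set D library as its own control, so a place in both lists is not a replicate. H3K4me3 overlapped 3 of 5 set C regions (60.0%, beside 65.9%) and 6 of 8 set D peaks (75%, beside 56.0%). H3K27ac overlapped 3 of 5 (60.0%, beside 78.2%) and 5 of 8 (62.5%, beside 70.7%). The widest set C region was 1829 bp and the widest set D peak 1104 bp, both at the HOXD site.

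Long stretches of the windows held no region of any list. Their lengths were not set against empty stretches elsewhere on the chromosomes. In HOXB nothing was listed from 46709325 to the window's end on chromosome 17, 101 kb or 47.9% of the window, on the side of HOXB13. In HOXC nothing was listed in the first 58.1 kb (41.5%), the end of HOXC13. In HOXA the longest empty stretch ran over 38.4 kb, and in HOXD over 33.4 kb from 177005952 to 177039373 on chromosome 2. H3K27ac taken by itself was missing from the first 55.1 kb of HOXA, the last 122 kb of HOXB, the first 91.7 kb of HOXC and 76.8 kb in the middle of HOXD. MYC of either list was missing from the first 70.4 kb of HOXA, the last 121 kb of HOXB, the first 58.1 kb of HOXC and the last 54.0 kb of HOXD.

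**Figure D4:**
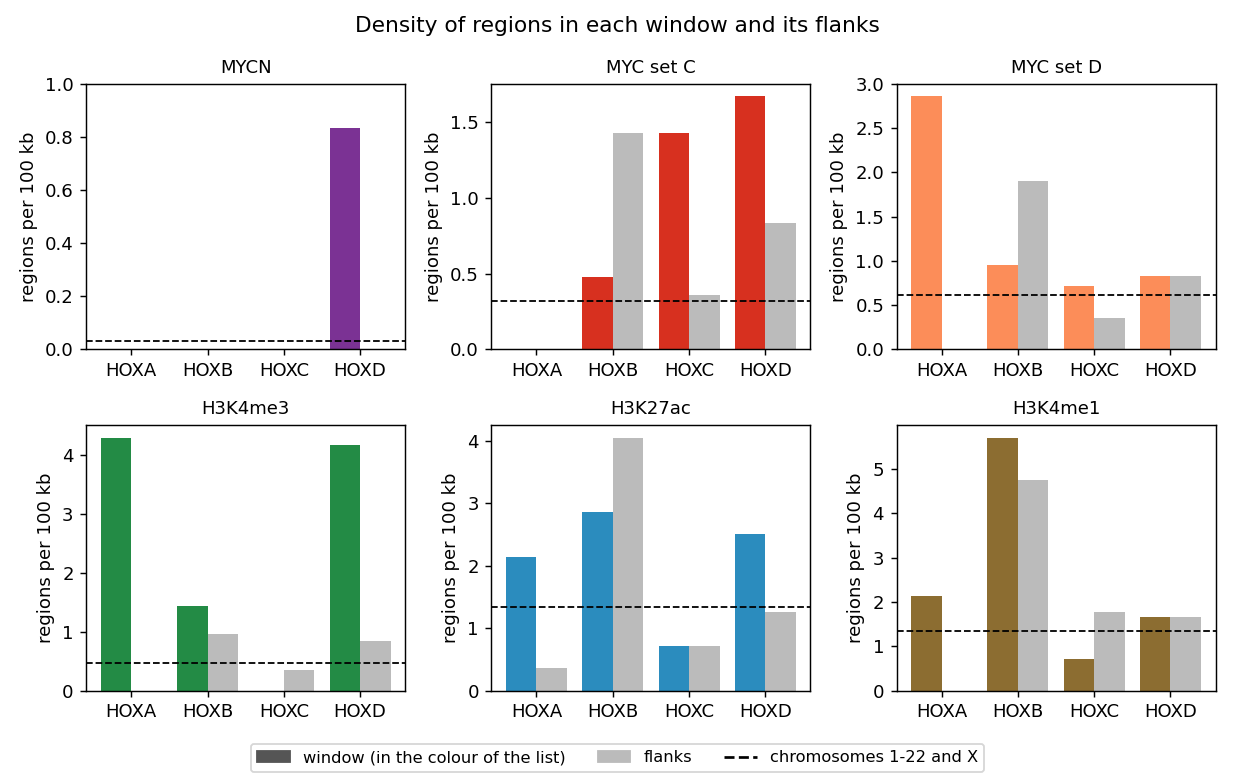
Regions per 100 kb in each window (coloured bars) and in the sequence of the same length on either side (grey bars), 1 panel per list; the dashed line is the density over chromosomes 1 to 22 and X, and each bar is a count from 1 list with no replicate. HOXA stands at 4.29 H3K4me3 regions per 100 kb between flanks with none.

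HOXA lay in nearly bare surroundings, and the other windows had listed regions on both sides. Over the 4 windows H3K4me3 had 2.30 regions per 100 kb, beside 0.574 in flanks of the same length and 0.470 over the chromosomes. H3K27ac had 2.13 beside 1.89 and 1.34, and H3K4me1 2.95 beside 2.38 and 1.34. MYC had 0.820 beside 0.738 and 0.322 in set C, and 1.31 beside 0.902 and 0.611 in set D. The 140 kb on each side of HOXA held no H3K4me3, H3K4me1, MYC or MYCN and 1 H3K27ac region. The flanks of HOXB were uneven. The 210 kb at lower coordinates held 18 H3K4me1, 11 H3K27ac and 0 H3K4me3 regions, and the 210 kb at higher coordinates 2, 6 and 4. The 140 kb below HOXC held 5 H3K4me1, 2 H3K27ac and no H3K4me3 regions, and the 140 kb above it 1 H3K4me3 region and 1 of each MYC list. With flanks of 500 kb on each side, H3K4me3 stood at 0.900 regions per 100 kb and MYCN, absent from the shorter flanks, at 0.0750. Of the 36 H3K4me3 regions in these longer flanks 22 were around HOXC (9 below and 13 above), 10 around HOXB (4 and 6), 3 around HOXD (1 and 2) and 1 around HOXA.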

How the data were processed

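The authors deposited peak coordinates, in bases, for the build hg19, per the submitters' processing notes, which name MACS2 and SEACR without versions. The lists hold no score, fold, p or q. Per the file headers, MYCN is cutruntools output, H3K4me3 and MYC of set D (unpaired reads) were called with MACS2, and MYC of set C with SEACR, stringent and paired. The H3K27ac and H3K4me1 lists have no header, and the aligner is not given in the sources used here. With differing callers, region numbers of different lists are not amounts of binding.

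Regions on chromosomes 1 to 22 and X were kept. Belonging to a window and overlap both needed at least 1 shared bp. Coordinates are 1-based. Intervals are exact Clopper-Pearson 95% intervals. Background stretches ran between the first and last region of any list on each chromosome, 2950 Mb in all. The rule named, per cluster, every MYC, MYCN and H3K4me3 region (at most 10 a list), the widest H3K27ac and H3K4me1 region and the longest empty stretch. 1 H3K4me3 region of HOXA is counted but not reported singly here. Other H3K27ac and H3K4me1 regions were named after their values were seen. Windows, lists and comparisons were chosen with earlier results of these data known. Planned looks at HOX cofactor and marker genes need an hg19 annotation and were not made.

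Tested on simulated data, the code found all 80 regions planted in the windows and all 28 planted overlaps. On the lists used here, its counts for 30 list pairs equalled those of bedtools 2.31.1. The code ran in Python 3.11.15 with scipy 1.17.1, numpy 2.4.6 and, for drawing, matplotlib 3.10.9.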

Additional observations from a re-analysis of the deposited data

How the results depend on the processing

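Of 65 values recomputed under alternatives for 23 results, 55 stayed within 1.5 times the reported count or density, or within the interval of the reported share. Keeping only regions at or above their list's median width left 4 H3K4me3 regions in the windows, 6 of H3K4me1, 2 of MYC set C and 2 of MYC set D. MYC of set D, and MYC of either list, then lay in 2 clusters in place of 4. H3K27ac overlapped 4 of 4 H3K4me3 regions (100%, interval 39.8 to 100%), and the whole-list share was not computed with both lists so filtered. Without set C, MYC overlapped 42.9% of the H3K4me3 regions in the windows (72.3% over the whole list), and without set D 21.4% (47.9%). MYC of either list then lay in 4 and 3 clusters. With flanks of 500 kb, flank densities became 0.900 regions per 100 kb for H3K4me3 and 0.0750 for MYCN. Assigning regions by their centre, widening windows by 20 kb, counting overlap by centres and joining regions of each list under 1 kb apart moved none of the results they were run on beyond these bounds. Joining regions of any list under 1 kb apart gave 29 composite sites in place of 35, an alternative chosen after the data were examined. No paired analysis was possible because the lists come from no test and the labels number no replicates. Depth is unknown, so a bare stretch means only that no region was listed there.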
